A study of Danio rerio with 40 samples.

Results

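Among 40 single cells sorted from adult zebrafish ventricles, 3 cells, named KP15, KP25 and KP40 in the labels, carried transcripts of both ALDH1A2 and podxl at 50 CPM or more, where CPM is the expected reads of a gene scaled to 1000000 reads of its cell. They were set against 21 other cells that had at least 2000 genes at 5 or more expected reads and at least 5 expected reads of TCF21, and the remaining 16 cells met neither rule. All 40 cells belong to 1 group: they came from fish of the EK strain, 6 months old, that carried the reporter tcf21:nucEGFP, in which a nuclear green fluorescent protein marks cells with tcf21 activity. The ventricles were digested with the enzyme mix Liberase DH, cells positive for EGFP and negative for the dead-cell dye propidium iodide were sorted, and single cells were captured on the Fluidigm C1, a device that makes a library from each cell in its own chamber. Every cell compared had therefore passed the reporter sort, and the labels name no animal, pool, batch or day for any of them. Since the 3 cells were chosen by the levels of 2 genes in these same libraries and the 40 cells make up 1 sample, the values below are descriptions and no test was made.

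The epicardium is the mesothelium of the heart, a flat epithelial sheet on its outer surface. Mesothelial cells are held together by junctions, carry keratin filaments and coat their free face with sialomucins such as podocalyxin, the product of podxl. In development, epicardial cells make retinoic acid with the enzyme encoded by ALDH1A2, and some leave the sheet to become fibroblasts and mural cells in the wall beneath. tcf21 encodes a transcription factor of the epicardium and of the fibroblasts that come from it, so a tcf21 reporter can mark both states.

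The total of expected reads was 4376055 in KP15, 3583712 in KP25 and 5695770 in KP40, and it lay between 1364664 and 4347066 in the 21 other cells (median 3104350). At least 5 reads were found for 4119, 2813 and 10792 genes in KP15, KP25 and KP40, against 2004 to 3429 genes in the other cells (median 2369). KP40 and KP15 thus lay above every other cell in gene number, and KP25 within their range. Genes with a mitochondrial symbol took 2.44%, 2.36% and 6.78% of reads in the 3 cells and 0.328 to 9.90% in the others (median 1.53%).

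The genes that chose the cells had levels far from the 50 CPM that the rule asked for. ALDH1A2, which encodes the retinaldehyde dehydrogenase that makes retinoic acid, stood at 3939.6 CPM in KP15 (17239.9 expected reads), 2583 CPM in KP25 (9257.6 reads) and 433 CPM in KP40 (2468 reads). The next cells outside the rule were KP34 with 14.7 CPM and KP20 with 12.02 CPM, both of the 16 cells that met neither rule. They held 5 and 7 reads of ALDH1A2 in totals of only 340293 and 582479 expected reads. In the 21 cells compared ALDH1A2 reached at most 3.22 CPM, which were 10 reads in KP35. podxl stood at 236 CPM in KP15, 2465 CPM in KP25 and 768 CPM in KP40, and the next cell was KP29 with 3.72 CPM, or 5.08 reads. No cell lay between 14.7 and 433 CPM of ALDH1A2 or between 3.72 and 236 CPM of podxl, and a cell needed both genes to be chosen. As these levels chose the cells, the gap describes the choice and is no separate result about the 3 cells.

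jam2b (ENSDARG00000079071), which encodes a junctional adhesion molecule and is the gene beside these in the name of the cells, was not part of the rule. It was named beside them with earlier results of these same data known, so its levels give no independent support. It stood at 664 CPM in KP15 (2906.4 reads, Poisson 95% interval 2802 to 3014), 1299 CPM in KP25 (4655.4 reads, 4523 to 4791) and 21.95 CPM in KP40 (125 reads, 104 to 149). In the 21 other cells it had at most 2 reads and reached 5 reads in 0 of 21, and 3 of them held 1 to 2 reads. A count of 0 of 21 allows a share of up to 14.3% of cells with 5 or more reads, and sets no limit on cells that express the gene below that depth. The pair KP15 and KP25 therefore carried all 3 genes of the name in quantity, while in KP40 jam2b stayed under 50 CPM. The intervals cover the counting of reads only, and reads without molecular identifiers are not independent molecules. The limit covers the counting of cells only.

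Other genes used to mark the epicardium were uneven across the 3 cells. TCF21 stood at 1061 CPM in KP15, 44.9 CPM in KP25 and 556 CPM in KP40. The other cells had 37.4 to 1584 CPM (median 319). All 3 lay within that range, and KP25 near its lower end. A minimum of TCF21 reads was part of the rule for the other cells, so the lower end of their range depends on that choice. KP11, with 2143 genes detected, was left out by its TCF21 level of 0.603 CPM. The place of the 3 cells in this range is therefore no separate result. TBX18, a T-box factor of the epicardium, stood at 99.2, 209 and 379 CPM in KP15, KP25 and KP40, against 0.733 to 2789 CPM (median 66.7). The Wilms tumour genes had few reads in the 3 cells. WT1 had 10 reads in KP15, none in KP25 and 73 in KP40, and wt1b had 2, none and 61. Single other cells reached 1024 CPM of WT1 and 519 CPM of wt1b, which are highest values and not usual levels. BNC2, a zinc finger gene of mesothelia, stood at 725 CPM in KP15, 0.837 CPM in KP25 and 54.95 CPM in KP40, with at most 541 CPM in the others. tmem88b followed the same order, at 577, 0.558 and 454 CPM against a median of 69.2 CPM and a highest value of 1371 CPM in the other cells.

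**Figure D1:**
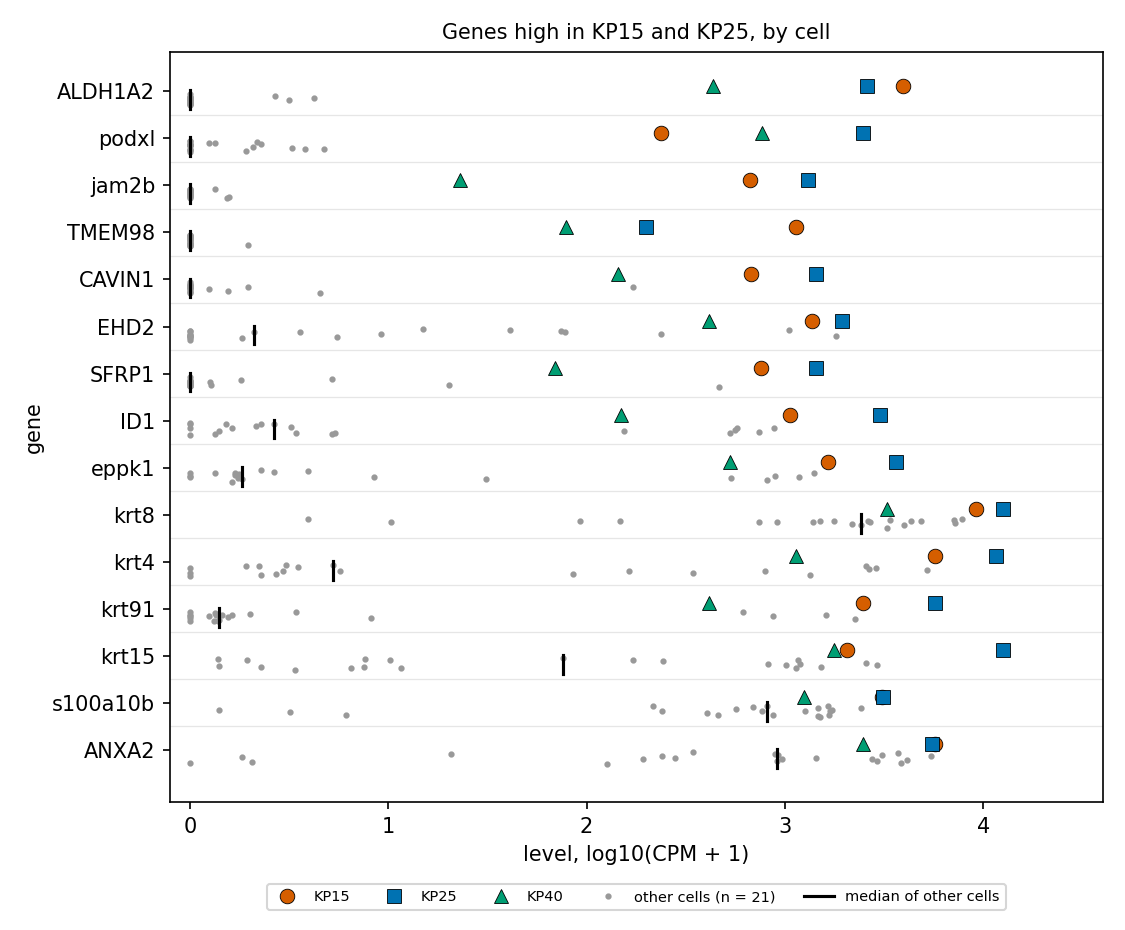
Level of 15 genes in single cells on a log10(CPM + 1) axis, with 1 marker for each of KP15, KP25 and KP40, a grey dot for each of the 21 other cells and a black bar at their median. KP15 and KP25 lie to the right of every grey dot for ALDH1A2, podxl, jam2b, TMEM98, CAVIN1, SFRP1, ID1, eppk1, krt8, krt4, krt91, s100a10b and ANXA2, while for EHD2 and krt15 some grey dots reach past KP15.

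Genes shared by KP15 and KP25 were counted over 9895 genes that had 5 or more reads in at least 2 of the 24 cells compared. In 40 of them (0.404%) both cells were at 50 CPM or more and above each of the 21 others, and 36 of the 40 have a symbol. Among the 474 genes that reached 50 CPM in both cells, the 40 are 8.44%. How many genes any other pair of cells would place above all the rest was not counted. The number 40 by itself is therefore no measure of likeness within the pair. ALDH1A2 and podxl are among the 40 by choice of the cells. By a wider rule, 218 genes (2.2%) were 4-fold or more higher in both cells. That is, the lower of the 2 levels was at least 50 CPM and at least 4 times the median of the other cells. That median was taken as at least 10 CPM. All 218 therefore lie among the 474 genes at 50 CPM in both cells. Most tested genes could not be called higher, so the 2.2% set beside lists below is a low share for lists of expressed genes. For 181 of the 218 genes the median of the other cells was itself under 10 CPM, and the middle gene of the 218 still reached 50 CPM in 5 of the 21 cells, so most of these genes were present in some other cells as well. Against all other 37 cells, 31 of the 40 genes were above every other cell, and adding cells can by the rule only remove genes. Against the 10 other cells with most genes, all of them among the 21, the count was 72, and leaving cells out can only add genes to the 40. With KP18 left out of the other cells, the library among them with the highest cardiomyocyte transcripts, the counts were 42 and 218.

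Keratins, the intermediate filament proteins of epithelia, set KP15 and KP25 well up the range of the cells. krt8, the type II keratin of simple epithelia, stood at 9183 CPM in KP15, 12483 CPM in KP25 and 3265 CPM in KP40, against 2.93 to 7775 CPM in the other cells (median 2401). krt4 stood at 5715 CPM in KP15, 11535 CPM in KP25 and 1130.1 CPM in KP40, against 0 to 5175 CPM (median 4.27). krt91 stood at 2458, 5730 and 411 CPM in KP15, KP25 and KP40, against 0 to 2249 CPM (median 0.412). For each of these 3 genes the pair lay above all 21 cells and KP40 within their range, though the margin of KP15 was narrow, at 1.181, 1.104 and 1.093 times the highest of the others. krt8 and krt4 were also high in cells that met neither rule, up to 10259 and 7023 CPM, so that krt91 was the 1 keratin gene of the 3 that stayed above all other 37 cells in both.

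Of the 20 keratin genes in the table, 8 were among the genes tested. Of these 3 were 4-fold or more higher in the pair, beside 2.2% of all tested genes. Only genes at 50 CPM in both cells could be called higher, and 218 of 474 such genes were. Keratins at 50 CPM numbered 6 in KP15 and 8 in KP25. Only 5 had a median of 50 CPM or more in the other cells and could be called lower. None of the 5 was 4-fold or more lower, beside 12.1% of all such genes. Differences from the other cells' median were taken on the log2 scale after adding 10 CPM to both levels. The median difference of the 8 tested keratins was 2.17 in KP15, 5.03 in KP25 and 3.76 in KP40. All tested genes had medians of 0, 0 and 1.06. krt15 was the third of the 4-fold genes beside krt4 and krt91, at 2058, 12570.0 and 1762 CPM, but KP15 overlapped the other cells, which reached 2897 CPM. krt94 stood at 2709, 7454 and 2436 CPM in KP15, KP25 and KP40, and the highest other cell had 5659 CPM. The largest single value was that of krt5, with 19554 CPM in KP25 beside 3.66 CPM in KP15 and 177 CPM in KP40, and at most 6.44 CPM in the other cells. Close keratin copies share sequence, and the expected counts divide reads among copies by an estimate, so the level of 1 keratin is less certain than that of all together. Summed over the list, keratins took 22708, 69622 and 10687 CPM in KP15, KP25 and KP40, against 166 to 21333 CPM in the other cells (median 6424), with KP25 far above all of them and KP15 just above the highest. The wider list of 42 mesothelial and epicardial epithelial markers, which holds several keratins, jam2b and both genes of the rule, had 28 tested members. Of these 8 were 4-fold or more higher in the pair, or 28.6% beside 2.2% of all tested genes. Members at 50 CPM, which alone could be called higher, numbered 17 in KP15 and 17 in KP25. Above every other cell were 7, beside 0.404% of all tested genes. ALDH1A2 and podxl, which had chosen the cells, are in both counts, and so is jam2b. Of 10 members with a median of 50 CPM or more in the other cells 1, CLU, was 4-fold or more lower. That is 10% beside 12.1% of all such genes. Against all other 37 cells 4 of the 7 stayed above every other cell.

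Genes that bind keratins, membranes and the actin cortex were among the 40 as well. eppk1, which encodes epiplakin, a plakin that binds keratin filaments, stood at 1642 CPM in KP15, 3636 CPM in KP25 and 529 CPM in KP40, against a median of 0.839 and a highest value of 1393 CPM in the other cells. ANXA2, the annexin that links membranes to actin, stood at 5686, 5499 and 2484 CPM, against a median of 908 and a highest value of 5424 CPM. Its partner of the S100 family, s100a10b, stood at 3082, 3113 and 1244 CPM, against a median of 813 and a highest value of 2417 CPM, and the second copy, s100a10a, at 56.0, 75.3 and 4.39 CPM, with no read in any of the 21 cells. For ANXA2, the level of KP25 was only 1.01 times that of the highest other cell, and cells that met neither rule reached 6148 CPM of ANXA2 and 3327 CPM of s100a10b, above the pair. ANXA1 was 4-fold or more higher in both, at 519, 1192 and 522 CPM against a median of 106 CPM, and it overlapped the other cells, which reached 2403 CPM.

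Caveolae are flask-shaped pits of the plasma membrane whose coat is built of caveolins, cavins and EHD proteins. CAVIN1 (ENSDARG00000059362), a cavin needed to form the pits in mammals, stood at 676 CPM in KP15, 1429 CPM in KP25 and 143 CPM in KP40. Of the 21 other cells 2 detected it, the highest being KP8 with 171 CPM, and KP8 was the 1 other cell at 50 CPM or more. CAVIN2 (ENSDARG00000071196) stood at 3809, 627 and 671 CPM in KP15, KP25 and KP40, and EHD2 (ENSDARG00000040362) at 1369, 1937 and 415 CPM. Both were 4-fold or more higher in the pair and overlapped the other cells, whose medians were 1.24 and 1.12 CPM and whose highest values were 1505 and 1807 CPM. CAV2, which encodes the partner of caveolin 1 in the coat, stood at 12.6, 224 and 139 CPM and had at most 0.417 CPM in the 21 cells, but up to 2201 CPM in the cells that met neither rule. cav1 itself was not analysed here. Of the 16 listed caveola genes 11 were tested, and 3 of them were 4-fold or more higher in the pair, beside 2.2% of all tested genes. None had a median of 50 CPM or more in the other cells, so none could be called lower. Their sum was 6675 CPM in KP15, 4232 CPM in KP25 and 1529 CPM in KP40, against 1.30 to 2319 CPM in the other cells (median 263), so the pair lay above the 21 cells, while 1 of the 16 remaining cells, KP4, reached 14421 CPM.

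Junction, polarity and surface genes gave fewer shared differences. Of 61 genes of tight and adherens junctions 26 were tested. In both cells 2 were 4-fold or more higher, or 7.69% beside 2.2% of all tested genes. They were jam2b, which is in the name of the cells, and CDH2, the gene of N-cadherin. CDH2 stood at 262 CPM in KP15, 884 CPM in KP25 and 456 CPM in KP40, against 0 to 1957 CPM (median 11.2), with overlap. JAM3, a further junctional adhesion molecule, was at 37.0, 134 and 96.9 CPM with at most 112 CPM in the others. Desmosome genes differed within the pair: dsg2.1 had 1015 CPM in KP25 and 0.229 CPM in KP15, dsc2l had 348 CPM in KP15 and no read in KP25, and PKP3 had 749 CPM in KP25 and 0.457 CPM in KP15. Of 39 genes of apical polarity and membrane linkage 15 were tested, and none was 4-fold or more higher in the pair, beside 2.2% of all tested genes. Of 2 with a median of 50 CPM or more in the other cells none was 4-fold or more lower, beside 12.1% of all such genes. Of 30 mucin, syndecan, glypican and hyaluronan genes 12 were tested. Of these podxl alone was 4-fold or more higher, or 8.33% beside 2.2% of all tested genes, and it had chosen the cells. Neither of 2 with a median of at least 50 CPM in the others was 4-fold or more lower, beside 12.1% of such genes. sdc4, a syndecan gene detected in all 24 cells compared, stood at 9536, 5058 and 6202 CPM, within 2700.2 to 29410.4 CPM of the others.

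Of 45 listed genes of the retinoic acid pathway 20 were tested. ALDH1A2, which had chosen the cells, was the 1 that was 4-fold or more higher in both, or 5% beside 2.2% of all tested genes. RDH10, whose enzyme makes the retinaldehyde that ALDH1A2 uses, has 2 copies in the table. The copy ENSDARG00000058730 stood at 47.3, 198 and 210 CPM in KP15, KP25 and KP40, against a median of 0 and a highest value of 255 CPM in the other cells, of which 2 of 21 detected it. It missed the rule by the level of KP15, which was under 50 CPM. The copy ENSDARG00000012369 stood at 29.02, 0 and 423 CPM, against a median of 26.01 and a highest value of 1572 CPM. CYP26B1, which degrades retinoic acid, had 0.229 CPM in KP15 and none in KP25, beside 121 CPM in KP40, and DHRS3, which turns retinaldehyde back to retinol, had 0.685, 0.279 and 115 CPM. The other cells ranged up to 2077 CPM of CYP26B1 and 1871 CPM of DHRS3, with medians of 0 and 0.686 CPM, so the pair was near the middle of the other cells for both. CRABP1, a retinoic acid binding protein gene, was at 170 CPM in KP15, none in KP25 and 27.6 CPM in KP40, with at most 33.5 CPM in the other cells, so that KP15 lay above all 21.

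Of 116 secreted signal genes 44 were tested. In the pair 5 were 4-fold or more higher, or 11.4% beside 2.2% of all tested genes. Of 3 whose median in the other cells was 50 CPM or more, 1 was 4-fold or more lower, beside 12.1% of all such genes. SFRP1 (ENSDARG00000035521), a secreted inhibitor of Wnt signals, stood at 754 CPM in KP15, 1437 CPM in KP25 and 68.5 CPM in KP40, and the pair lay above all other cells, of which 3 detected it with at most 464 CPM. SLIT3, a ligand of Robo receptors, stood at 549, 4253 and 154 CPM, against a median of 0.966 and a highest value of 1838 CPM. igf2b, an insulin-like growth factor gene, stood at 599, 2937 and 402 CPM, against a median of 1.59 and a highest value of 1596 CPM. DKK3 at 2359, 122 and 410 CPM and hbegfa at 261, 330 and 56.5 CPM complete the 5, both with overlap, the others reaching 1594 and 527 CPM. ID1, an inhibitor of helix-loop-helix factors and a target of BMP signals, was above all 21 cells at 1062 CPM in KP15 and 2996 CPM in KP25, with 148 CPM in KP40 and at most 878 CPM in the others, but 1 cell that met neither rule, KP4, had 16739 CPM.

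Transcription factor genes of the epicardium and mesenchyme numbered 50, of which 30 were tested and 3 were 4-fold or more higher in the pair, beside 2.2% of all tested genes. SOX6 stood at 1560.3 CPM in KP15, 486 CPM in KP25 and 132 CPM in KP40, against 0 to 594 CPM with a median of 0. zeb2a stood at 206, 153 and 344 CPM with a median of 0.776 CPM and a highest value of 4561 CPM elsewhere, and klf2a, a factor induced by shear flow in endothelium, at 1161, 173 and 756 CPM with 3.05 and 2515 CPM. In none of the 3 did both cells lie above all others. Of 27 Hippo and TEAD target genes listed 19 were tested. LATS2, a kinase of the Hippo pathway, was the 1 that was 4-fold or more higher, or 5.26% beside 2.2% of all tested genes. It stood at 98.95, 131 and 12.99 CPM, and 6 of the 21 other cells detected it, with up to 1141 CPM in KP19.

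Besides ALDH1A2, jam2b and podxl, the genes of the 40 with the greatest distance from the other cells were NME7, rsf1b.1, TMEM98, MINDY1, TP53BP1 and SCYL3. NME7, named after a human kinase-like protein of microtubule centres, stood at 377 CPM in KP15, 279 CPM in KP25 and 3.16 CPM in KP40, against at most 0.839 CPM. rsf1b.1, named after a human chromatin remodelling factor, stood at 401, 353 and 11.7 CPM, against at most 16.6 CPM in the other cells. TMEM98 stood at 1136, 199 and 77.6 CPM, against at most 0.966 CPM. MINDY1, named after a human deubiquitinase, stood at 217, 131 and 28.3 CPM and had no read in any other of the 37 cells. TP53BP1, named after a human DNA repair protein, stood at 121, 402 and 30.6 CPM, against at most 2.52 CPM, and SCYL3 at 108, 220 and 53.9 CPM, against at most 0.322 CPM. In all, 10 of the 40 genes were detected in none of the 21 cells, and the lower level of the pair was at least 4 times the highest other cell for 17. KP25 was higher than KP15 for 28 of the 40.

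**Figure D2:**
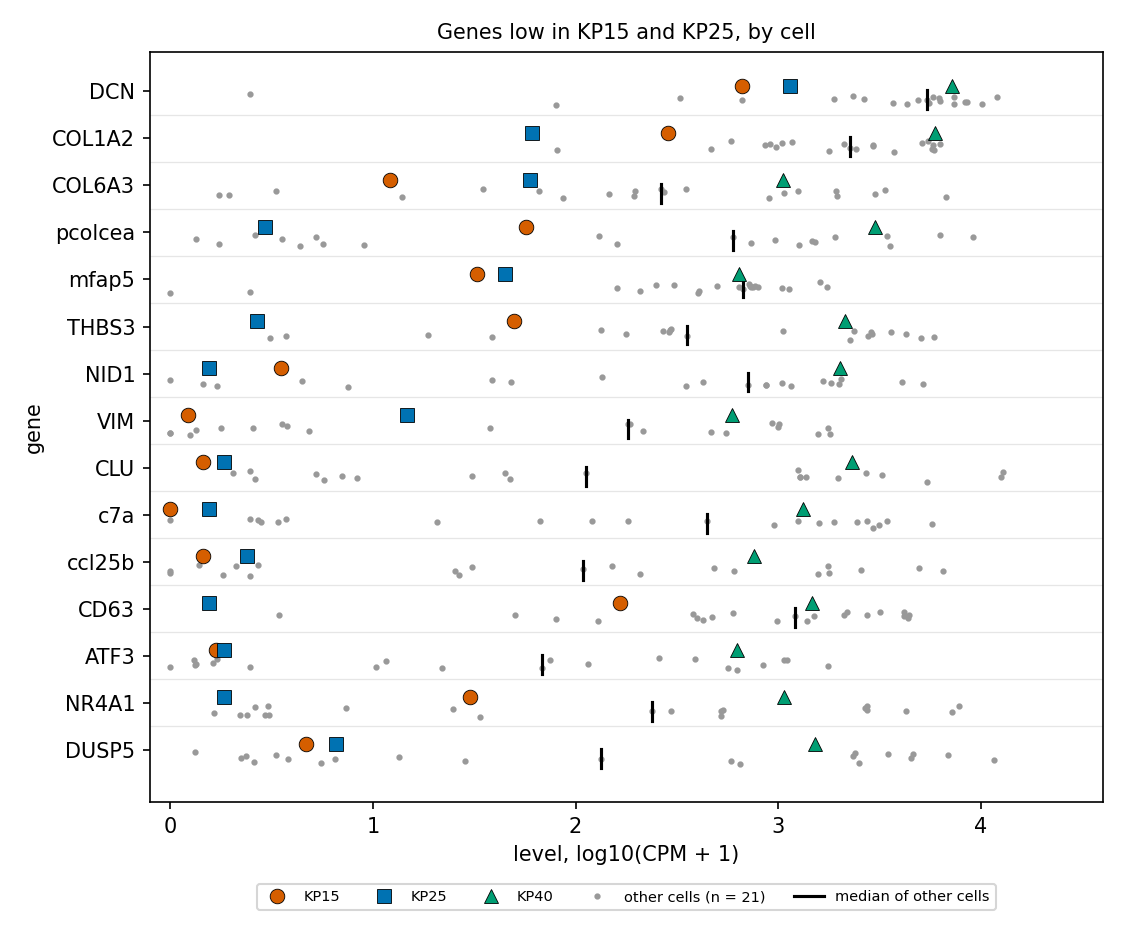
Level of 15 genes in single cells on a log10(CPM + 1) axis, drawn as in the plot of high genes, with 1 marker for each of KP15, KP25 and KP40, grey dots for the 21 other cells and a black bar at their median. KP15 and KP25 lie left of the median for all 15 genes, in the lower part of the grey dots, while KP40 lies near or right of the median.

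Genes low in the pair were fewer. A gene was 4-fold or more lower in both KP15 and KP25 if the other cells had a median of at least 50 CPM and neither cell exceeded 0.25 times it. This held for 52 of the 9895 genes (0.526%), which is 12.1% of the 428 genes with such a median. The groups overlapped for nearly all: both cells lay below every other cell for 2 of the 52. KP40 was above the limit for 51 of the 52 and at or above the median of the other cells for 39. Set against all other 37 cells, many of which have few genes, 10 of the 52 passed. Against the 10 other cells with most genes, 109 passed, 45 of them among the 52.

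Matrix and fibroblast genes were among the 52. DCN, the gene of the collagen-binding proteoglycan decorin, stood at 665 CPM in KP15, 1138 CPM in KP25 and 7225 CPM in KP40, against 1.47 to 12005 CPM in the other cells (median 5443). COL1A2, a chain of type I collagen, stood at 286, 59.7 and 5909 CPM, against 80.1 to 6264 CPM (median 2257). COL6A3 stood at 11.2, 58.3 and 1050.2 CPM (median of the others 262), mfap5 of the microfibrils at 31.5, 43.8 and 638 CPM (median 673) and THBS3, a thrombospondin, at 48.9, 1.67 and 2129 CPM (median 354). pcolcea, an enhancer of collagen processing, stood at 56.2, 1.95 and 3012 CPM, with a median of 597 CPM. In each of these genes KP15 and KP25 were low and KP40 was in the upper or middle range of the other cells. The intermediate filament gene VIM (ENSDARG00000010008) stood at 0.229, 13.7 and 591 CPM with a median of 181 CPM, and NID1, a basement membrane gene, at 2.51, 0.558 and 2016 CPM with a median of 709.8 CPM.

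Of the 62 listed fibroblast matrix genes 37 were tested. None was 4-fold or more higher in the pair, beside 2.2% of all tested genes. Of the 14 whose median in the other cells was 50 CPM or more, 5 were 4-fold or more lower, or 35.7% beside 12.1% of all such genes. Against all other 37 cells 3 were lower and 1 was higher. The median difference over the tested genes was 0 in both KP15 and KP25 and 2.99 in KP40, on the log2 scale. The matrix was not low throughout. FN1 (ENSDARG00000006526), the fibronectin gene, stood at 4149, 6935 and 6398 CPM, against a median of 3675 CPM, and MMP2, a gelatinase gene, at 4191, 678 and 1527 CPM, against a median of 174 CPM. Another FN1 gene, ENSDARG00000019815, had no read in KP15 or KP25 and 344 CPM in KP40, against a median of 5.16 CPM. Another type I collagen gene, col1a1a, stood at 170 CPM in KP15 and 3505 CPM in KP25, against a median of 621 CPM, and COL1A1 stood at 1169.7 and 2703 CPM, against a median of 802 CPM. Summed over the list, matrix genes took 15628, 16254 and 44063 CPM in KP15, KP25 and KP40, against 1855 to 57839 CPM (median 30942), with 17 of the 21 cells above each of KP15 and KP25 and 5 above KP40.

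**Figure D3:**
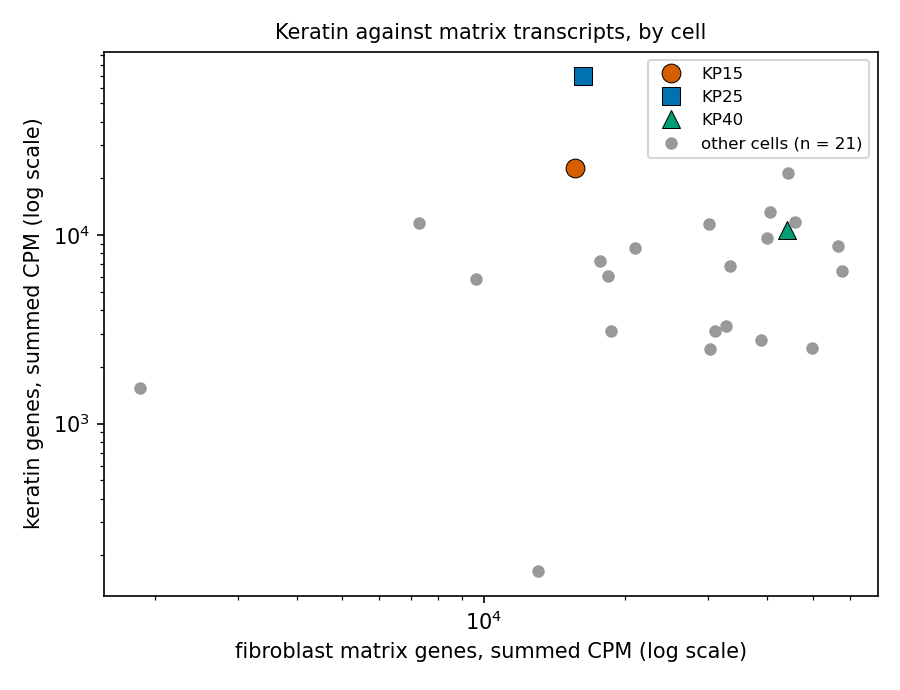
Summed CPM of the keratin genes (vertical, log scale) against summed CPM of the fibroblast matrix genes (horizontal, log scale), 1 point for each cell. KP15 and KP25 stand above the 21 other cells at matrix sums of 15628 and 16254 CPM, and KP40 lies within the other cells at a matrix sum of 44063 CPM.

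The ratio of the keratin sum to the matrix sum within a cell was 1.45 in KP15, 4.28 in KP25 and 0.243 in KP40, against 0.0127 to 1.59 in the other cells (median 0.241). KP25 lay above all of them, KP15 below KP8 alone, and KP40 at the middle. Sums of CPM depend on transcript length as well as number, and they are compared between cells and not between genes.

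Genes of secretion, defence and response were also among the 52. c7a, a complement component gene, had no read in KP15, 0.558 CPM in KP25 and 1324 CPM in KP40, against a median of 446 CPM in the other cells. CLU, the gene of clusterin, had 0.457, 0.837 and 2301 CPM (median 111), and the chemokine gene ccl25b had 0.457, 1.40 and 760 CPM (median 108). CD63, a tetraspanin of late endosomes, had 164, 0.558 and 1469.8 CPM (median 1208). Of the 45 immediate early genes, which follow a stimulus within minutes, 4 were 4-fold or more lower, of 22 with a median of 50 CPM or more in the other cells (18.2%, beside 12.1% of all such genes): ATF3, DUSP5, NR4A1 and GADD45B (ENSDARG00000013576). ATF3 stood at 0.685, 0.837 and 623 CPM (median 67.3), NR4A1 at 29.01, 0.837 and 1065 CPM (median 237) and DUSP5 at 3.66, 5.58 and 1525 CPM (median 133). Another GADD45B gene, ENSDARG00000027744, was not low in the pair, at 3996 CPM in KP15 and 4916 CPM in KP25 (median 1835). Of 37 tested members of the same list 2, ZFP36L2 and klf2a, were 4-fold or more higher, or 5.41% beside 2.2% of all tested genes. The sum of the list was 48696, 41705 and 47717 CPM, against 29571 to 126089 CPM (median 63339). Against all other 37 cells none of the 4 remained.

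The heat shock list was within the other cells' range as a whole, with sums of 79848 CPM in KP15, 32483 CPM in KP25 and 28730 CPM in KP40, against 26326 to 181821 CPM (median 72730.1). Of its 40 genes 33 were tested, and 1, FKBP4, was 4-fold or more higher in the pair, or 3.03%, near the 2.2% of all tested genes. Of 9 members with a median of 50 CPM or more in the other cells, 1, HSPA4 (ENSDARG00000004754), was 4-fold or more lower. That is 11.1%, near the 12.1% of all such genes. Of 73 oxidative phosphorylation genes 63 were tested and 2 were 4-fold or more higher, ATP5F1B and ATP5PO, or 3.17%, near the 2.2% of all tested genes. Listed were 48 cell cycle genes and 48 genes of ion and water transport, of which 12 and 17 were tested. None was 4-fold or more higher in both cells, beside 2.2% of all tested genes. These lists held 0 and 2 genes with a median of 50 CPM or more in the other cells. Neither of the 2 was lower, beside 12.1% of all such genes.

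KP15 and KP25 also differed from each other in many genes of the same roles. KP25 had high levels of several signals that were near 0 in KP15. frzb, a secreted Wnt inhibitor, stood at 7.54 CPM in KP15, 8267 CPM in KP25 and 486 CPM in KP40. The macrophage growth factor gene csf1a stood at 0.914, 2947 and 85.8 CPM, the chemokine gene cxcl12b at 0.457, 1683 and 17.5 CPM and WNT11 at 0.229, 567 and 26.2 CPM. In these 4 KP25 lay above the highest of the 21 other cells, which reached 1671, 164, 2.52 and 0.28 CPM. KP15 in turn had 1525 CPM of the semaphorin gene SEMA3D and 1388 CPM of IGFBP5, where KP25 had 0.279 CPM of each, and KP40 had 121 and 133 CPM. LAMA5, a laminin chain gene, stood at 643, 0.837 and 823 CPM, and MDK (ENSDARG00000036036), a midkine gene, at 2138, 1.67 and 988 CPM. Another MDK gene, ENSDARG00000020708, went the other way within the pair, at 411, 870 and 529 CPM. Summed basement membrane genes took 3583 CPM in KP15, 490 CPM in KP25 and 7375 CPM in KP40, against 101 to 17488 CPM in the others (median 4549).

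Counted alone, 459 genes (4.64%) were above all 21 cells in KP15, 391 (3.95%) in KP25 and 385 (3.89%) in KP40. The same count was not made for each of the 21 cells, so these shares have no yardstick among them. Of these, 51, 24 and 184 had fewer than 5 reads in both of the other two. Those of KP15 with a symbol included CEBPZ at 1024 CPM and DOK7 at 499.7 CPM, and those of KP25 included MRPS9, of the mitochondrial ribosome, at 1281 CPM and IDUA, a lysosomal enzyme, at 415 CPM. KP40 carried cd74a at 450 CPM and mhc2dab at 159 CPM, genes of the class II route of antigen presentation, and no read of either was found in KP15 or KP25.

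How much of the pattern of the pair KP40 shared differed with the rule. Of the 40 genes, 22 were at 50 CPM or more in KP40 and 18 under it, and KP40 had the lowest level of the 3 cells for 39. In 8 genes (0.0808%) all 3 cells were above every other cell, which is 1.92% of the 417 genes at 50 CPM in all 3. Besides ALDH1A2 and podxl these were TMEM98, SCYL3, ftr82, PFKFB4, FBXO9 and RNF5. ftr82, of a fish family of tripartite motif genes, stood at 81.6, 610 and 76.5 CPM, against at most 0.644 CPM. PFKFB4, an enzyme that sets the level of a glycolysis activator, stood at 947, 209 and 114 CPM, against at most 31.8 CPM. FBXO9, an F-box gene, stood at 204, 385 and 63.9 CPM, against at most 41.6 CPM, and the ubiquitin ligase gene RNF5 at 199, 55.9 and 54.3 CPM, against at most 35.3 CPM. The count of 8 was 20 with a minimum of 20 CPM and 3 with a minimum of 100 CPM, and it was 22 against the 10 other cells with most genes. By the 4-fold rule, 157 of the 218 genes were 4-fold or more higher in KP40 as well, where 2209 of all tested genes (22.3%) were 4-fold or more higher in KP40, beside 12.4% in KP15 and 8.19% in KP25. With KP25 left out, 575 genes were 4-fold or more higher in KP15 and KP40, and with KP15 left out 392 were in KP25 and KP40. The median log2 difference over all tested genes was 1.06 in KP40 and 0 in KP15 and KP25, and the part of the gene number in these counts was not tested.

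**Figure D4:**
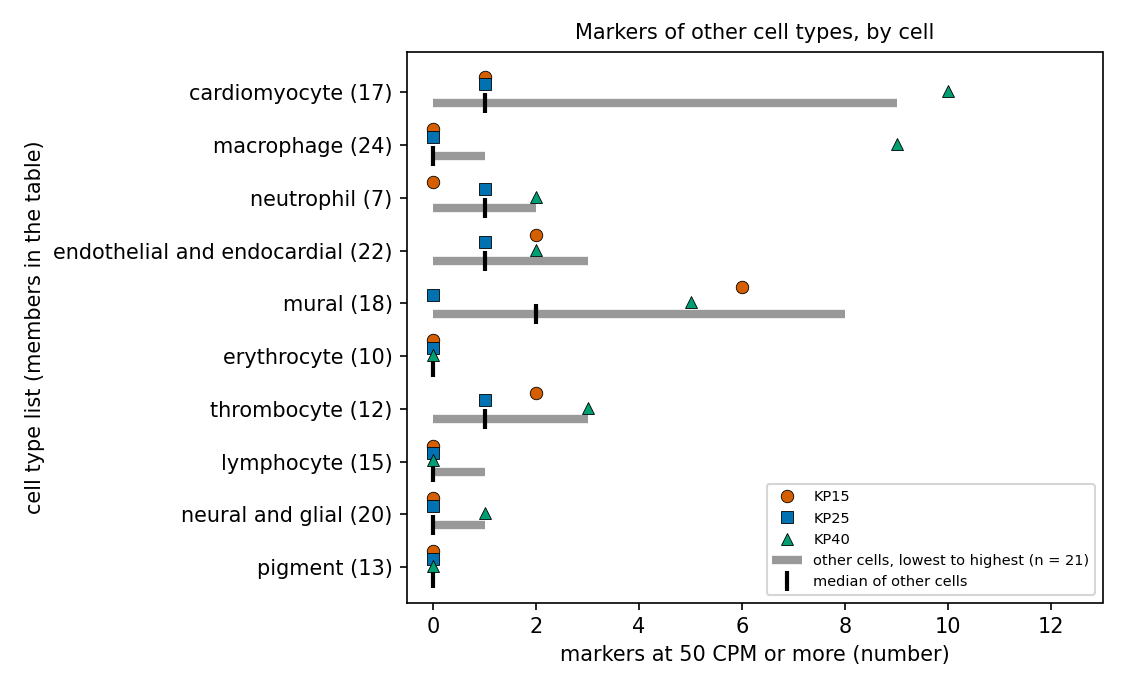
Number of marker genes at 50 CPM or more for 10 other cell types (list sizes in brackets), with markers for KP15, KP25 and KP40, a grey bar from the lowest to the highest of the 21 other cells and a black line at their median. KP40 lies beyond the grey bars for the cardiomyocyte and macrophage lists, and KP15 and KP25 lie within or at the edge of the bars for all 10 lists.

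KP40 also carried markers of other cell types. At 50 CPM or more it had 10 of 17 cardiomyocyte markers, against 0 to 9 in the other cells, and 9 of 24 macrophage markers, against 0 to 1. Of all 9895 tested genes, 1552, 1074 and 2577 were at 50 CPM or more in KP15, KP25 and KP40. The other cells had 691 to 1571 such genes, so KP40 exceeded them for genes in general as well. actc1a, a cardiac actin gene, stood at 1567 CPM and MYL7, a myosin light chain gene of heart muscle, at 827 CPM in KP40, with 0 and 0.229 CPM in KP15 and none in KP25. Among the other cells KP18 had the highest levels of both, 5259 and 2107 CPM. Summed cardiomyocyte markers took 205 CPM in KP15, 109.6 CPM in KP25 and 4458 CPM in KP40, against 0 to 15409.6 CPM in the others. Summed macrophage markers took 23.1 CPM in KP15, 3.43 CPM in KP25 and 1471 CPM in KP40, against 0.427 to 392 CPM in the others. In the pair, 22 of the 24 macrophage markers and 9 of the 17 cardiomyocyte markers were at 0 in both cells, and the 1 cardiomyocyte marker at 50 CPM in each was tpm4a, at 203 and 103 CPM, a tropomyosin gene that other cells carried at up to 826 CPM. Mural markers at 50 CPM numbered 6 of 18 in KP15, none in KP25 and 5 in KP40, against 0 to 8 in the others. The part of these transcripts, and of the gene number of KP40, in the likeness of KP40 to the pair and to the other cells was not tested.

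Over the 9895 genes, the rank correlation of KP15 with KP25 was 0.416, of KP15 with KP40 0.277 and of KP25 with KP40 0.224. KP15 had correlations of 0.298 to 0.399 with the 21 other cells (median 0.331), so its likeness to KP25 was above that to any of them. KP25 had correlations of 0.329 to 0.481 (median 0.374), and 1 or more other cells, with KP35 the highest, were more like it than KP15. KP40 had 0.028 to 0.346 (median 0.205), and the median between pairs of other cells was 0.403. Among the 21 other cells, KP35 also had the highest level most often, for 7 of the 40 genes, and it had 2378 genes detected. KP40 was left out of that ranking. These are descriptions over genes, which share library and depth within a cell and are not independent.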

How the data were processed

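The deposited values are expected counts, estimated numbers of reads that can be fractions, for 33737 genes in each of 40 cells. Per the submitters' processing notes the authors used Bowtie2 and RSEM 1.2.12 with the genome build Zv9. What each tool did, and with which settings, is not given in the sources used here. A separate table of gene names gave a symbol for 21939 genes, many in capitals, and 1028 of 1258 listed symbols were matched. Expected counts were kept unrounded and scaled here to CPM over all genes of a cell, so that a few abundant genes in a cell lower the CPM of its other genes. A gene was detected at 5 or more expected reads, and a tested gene was detected in at least 2 of the 24 compared cells. Fold rules (50 CPM minimum, 4-fold, medians taken as at least 10 CPM) replaced tests, since the labels name 1 group and no animal: the cells form 1 sample. The members and lists were chosen with earlier results of these data known. Named genes are list members, the 30 genes above every other cell in the pair with the highest ratio, the 20 with the lowest ratio, those above every other cell in all 3, and 20 of each cell alone. For the 3 cells every value is given, and for the others the lowest, median and highest. No doublet caller was run on 40 libraries. Sequences of promoters were not used here. The rules were run on simulated cells, with Poisson counts around 1 mean profile of the other cells and set changes in the pair. Such cells lack the variation between real cells, so they give no rate of false calls in these data. Alternatives were median-of-ratios scaling, counts thinned to 1364664 reads, minima of 20 and 100 CPM, no minimum of reads, totals without stress, ribosomal and mitochondrial genes, and other sets of compared cells. Python 3.11.15, numpy 2.4.6, pandas 2.3.3, scipy 1.17.1, statsmodels 0.14.6 and matplotlib 3.10.9 were used.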

Additional observations from a re-analysis of the deposited data

Results flagged for a closer look

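A few reads of the 2 genes that chose the cells appeared among the 16 cells that met neither rule, which are not part of the 21 cells compared. ALDH1A2 had 7 expected reads in KP20, 4 in KP30 and 5 in KP34, and podxl had 3.74 in KP27. All lie under 50 CPM. KP20 and KP34 had 374 and 399 genes detected, and mitochondrial genes took 43.75% and 47.35% of their reads.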

How the results depend on the processing

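The 4 counts of genes over all 9895 tested were recomputed under 9 other settings and without each cell in turn. With a minimum of 20 CPM the count of 8 genes above every other cell in all 3 cells was 20, and with 100 CPM it was 3. Against all other 37 cells the count of 52 lower genes was 10. Against the 10 other cells with most genes, 109 genes were lower, 72 were above every other cell in the pair and 22 in all 3. By the rule, a lower CPM minimum or fewer compared cells can only raise a count above every other cell, and a higher minimum can only reduce it. For the counts of lower genes the cause was not tested. The remaining values of these settings, of median-of-ratios scaling, of totals without stress, ribosomal and mitochondrial genes, of thinned counts and without KP18 were within 1.5 times those reported. Median-of-ratios scaling moved all log2 levels against the other cells by 0.13 in KP15, -0.04 in KP25 and 0.2 in KP40, and gave 12 genes in all 3. Leaving out 1 of the 21 other cells gave 208 to 222 higher genes, 50 to 61 lower, 40 to 46 above every other cell in the pair and 8 to 10 in all 3. By the rule, the counts above every other cell cannot fall when one of the 21 is left out. Leaving out 1 of KP15, KP25 and KP40 gave 218 to 575 higher, 1 to 52 lower, 40 to 75 above every other cell in the pair and 40 to 75 in those that remained. The low count of 1 came without KP25 and that of 4 without KP15, when KP40 took the place of the cell left out. Of 232 list counts recomputed, 217 were within 1.5 times those reported and 15 were not. Many of the 217 were 0 as reported and 0 again, so the total says little about the lists with calls. Among those that moved against all 37 cells were keratins above every other cell, from 3 to 1. Mesothelial markers above every other cell went from 7 to 4. Lower fibroblast matrix genes went from 5 to 3, and lower immediate early genes from 4 to 0. No paired analysis was possible because all cells belong to 1 group with no shared numbers. With 3 cells, and most genes undetected in any 1 cell, a gene at 0 may have been missed at this depth.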

Other observations

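Other genes above all 21 cells in both KP15 and KP25 had roles outside the lists. sned1, a matrix protein gene, stood at 828 CPM in KP15 and 63.2 CPM in KP25, with no read in KP40 and at most 0.966 CPM in the other cells. IFT46, of the transport trains of cilia, stood at 61.9 CPM in KP15, 439 CPM in KP25 and 18.8 CPM in KP40, against at most 0.733 CPM in the other cells, but a cell that met neither rule, KP24, had 315 CPM. VPS29, of the retromer coat of endosomes, stood at 329, 520 and 23.9 CPM in the same order, against at most 93.5 CPM, and gsta.1, a glutathione transferase gene, at 216, 124 and 11.3 CPM, against at most 65.3 CPM. EIF4EBP3, which encodes a repressor of cap-dependent translation, stood at 981, 1690.2 and 271 CPM, against at most 871 CPM.

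KP15 and KP25 also stood apart from each other in transport and Hippo genes. The nucleoside transporter gene SLC29A1 stood at 969 CPM in KP15, 14.5 CPM in KP25 and 10.7 CPM in KP40, against at most 0.644 CPM in the other cells. Summed over 48 genes of ion and water transport, KP15 had 3269 CPM, KP25 36.4 CPM and KP40 2317 CPM, against 59.5 to 7571 CPM in the other cells, so that KP25 lay below all 21. Summed Hippo and TEAD target genes were 1173 CPM in KP15, 8130 CPM in KP25 and 4699 CPM in KP40, against 1757 to 24801 CPM, so that KP15 lay below all 21.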
